A study of Mus musculus with 10 samples.

Results

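The genes examined here are 9 that mark mouse long-term hematopoietic stem cells (HSCs) or sit on their surface, *Procr*, *Fgd5*, *Ctnnal1*, *Tek*, *Kit*, *Ly6a*, *Esam*, *Cxcr4* and *Tgm2*. They were picked by symbol from the 26146 genes of the count table, all 9 were found there, and all 9 were among the 14165 genes that passed the filter on low counts. RNA came from LSKCD48-CD150+ HSCs, which lack lineage markers, carry Sca-1 and c-Kit, and were sorted from C57BL/6J mice, with 5 animals per genotype by the study's account. The study's RNA-seq methods name only sorted HSCs, and its cell counts used a gate that also excluded Flt3 and CD34. The 5 *Cited2* CKO mice carried floxed *Cited2* alleles with *Vav-iCre*, which deletes the gene throughout the hematopoietic system soon after HSCs emerge, and the 5 *Cited2* CTL mice, labelled wildtype, carried the floxed alleles without Cre, so an effect of Cre itself cannot be told apart from that of *Cited2*. The mice were 8 to 12 weeks old by the study's account. The comparison asks how the transcripts by which long-term HSCs are recognized differ when *Cited2* is lost.

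HSCs sit in niches of the bone marrow and are held there by receptors for signals from neighboring cells. KIT binds stem cell factor, TIE2 (the product of *Tek*) binds angiopoietins, and CXCR4 binds CXCL12. EPCR (*Procr*) is the receptor for protein C, and ESAM and Sca-1 (*Ly6a*) are further surface proteins used to isolate HSCs. FGD5 is an exchange factor for the small GTPase CDC42, alpha-catulin (*Ctnnal1*) is a relative of alpha-catenin and vinculin, and both genes carry reporters that mark HSCs in mice. TGM2 is a transglutaminase, an enzyme that crosslinks proteins. Sca-1 and c-Kit were part of the sorting gate, so *Ly6a* and *Kit* were measured in cells already chosen for high levels of their proteins.

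Library totals lay between 3058690 and 4548795 counts. *Cited2* itself had 101 to 222 CPM (counts scaled to a common library size with TMM factors) in the CTL libraries and 3.80, 4.21, 5.00 and 8.30 CPM in CKO 1, CKO 2, CKO 4 and CKO 5, but 120 CPM in the library labelled CKO 3. Its log2 fold change was -2.51 (adjusted p = 0.328, edgeR) and -4.92 without CKO 3 (adjusted p = 1.82e-06). The library labelled CKO 2 had *Xist* at 1307 CPM, at the level of the 3 libraries read as female from these genes (1250 to 1316 CPM), together with 329 CPM of 4 Y-linked genes, against 554 to 715 CPM in the 6 read as male and at most 4.73 CPM in the female ones. By these genes 2 CTL libraries were read as female and 3 as male. Of the CKO libraries 3 were read as male, and CKO 3 was the only 1 read as female. Whether the library labelled CKO 2 held cells of more than 1 mouse was not tested. Both libraries were kept in their labelled group, and the log2 fold changes of the 9 genes are also given without both of them.

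Upstream sequence was available for 6 of the 9 genes. That of *Tek* and *Kit* is shown because the means of these receptor kinases differed in opposite directions between the genotypes, and that of *Procr* because it was the only 1 of the 6 with a match to a searched motif. Each run holds the 250 bases before the RefSeq transcription start on GRCm38.p6, 5′ to 3′ on the gene's own strand, here the plus strand, *Kit* having a further start that is not shown, at chr4:94739039-94739288, chr5:75574737-75574986 and chr2:155750967-155751216, and capitals mark the match.
Tek: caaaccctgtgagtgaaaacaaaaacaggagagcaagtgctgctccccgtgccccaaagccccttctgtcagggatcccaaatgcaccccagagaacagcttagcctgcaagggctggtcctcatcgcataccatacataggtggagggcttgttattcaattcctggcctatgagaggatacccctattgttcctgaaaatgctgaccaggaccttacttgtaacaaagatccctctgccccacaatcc
Kit: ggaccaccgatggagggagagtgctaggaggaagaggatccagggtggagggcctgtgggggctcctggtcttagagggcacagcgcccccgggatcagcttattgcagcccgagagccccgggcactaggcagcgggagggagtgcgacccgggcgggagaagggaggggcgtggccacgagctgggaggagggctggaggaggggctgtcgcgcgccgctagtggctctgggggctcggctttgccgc
Procr: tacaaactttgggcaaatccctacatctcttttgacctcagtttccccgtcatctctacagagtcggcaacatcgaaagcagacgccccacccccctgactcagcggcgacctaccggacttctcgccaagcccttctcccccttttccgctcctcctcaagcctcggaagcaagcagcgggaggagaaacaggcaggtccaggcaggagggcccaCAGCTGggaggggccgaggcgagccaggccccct
The *Tek* window had 51.2% GC and 2 CpG dinucleotides, the *Kit* window 70.8% and 17, and the *Procr* window 61.6% and 13, where the median over 32851 such windows was 52.4% and 6. The letters searched on both strands were AGATAA (a motif of blood cell enhancers), TGTGGT (the RUNX motif), TTCNNNGAA (the STAT motif), ACGTG (the core of the hypoxia response element) and CAGCTG (an E-box), which occur in 9.99%, 14.0%, 7.02%, 16.6% and 13% of all windows. The capitals in *Procr* are the E-box, and it was the only match, so none overlapped. GENCODE M21 places the starts of *Procr* and *Kit* before these RefSeq starts, at 155751117 and 75574916. The ends of these windows, with the E-box of *Procr*, therefore lie inside the genes as GENCODE gives them. A match is a description of the letters and not a binding site.

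To set the genes beside each other, counts were divided by the deposited gene length and scaled to TPM (a share of all length-scaled counts). *Ly6a* had the highest level in CTL HSCs, 376 ± 20.2 TPM (SD, n = 5), followed by *Kit* (266 ± 23.4 TPM) and *Esam* (257 ± 9.03 TPM). *Procr* had 166 ± 19.3 TPM and *Tgm2* 151 ± 18.1 TPM. *Tek* (60.2 ± 8.93 TPM), *Ctnnal1* (59.4 ± 14.98 TPM), *Fgd5* (23.9 ± 3.04 TPM) and *Cxcr4* (12.6 ± 4.60 TPM) were the lowest. The order had 3 pairs of neighbors whose CTL libraries overlapped, *Kit* with *Esam*, *Procr* with *Tgm2* and *Tek* with *Ctnnal1*. In the CKO libraries *Esam* lay above *Kit* in 5 of 5 libraries (249 ± 14.5 against 229 ± 14.9 TPM) and *Tek* above *Ctnnal1* in 5 of 5, whereas in the CTL libraries *Kit* was the higher of the first pair in 4 of 5 and *Tek* of the second in 2 of 5.

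**Figure D1:**
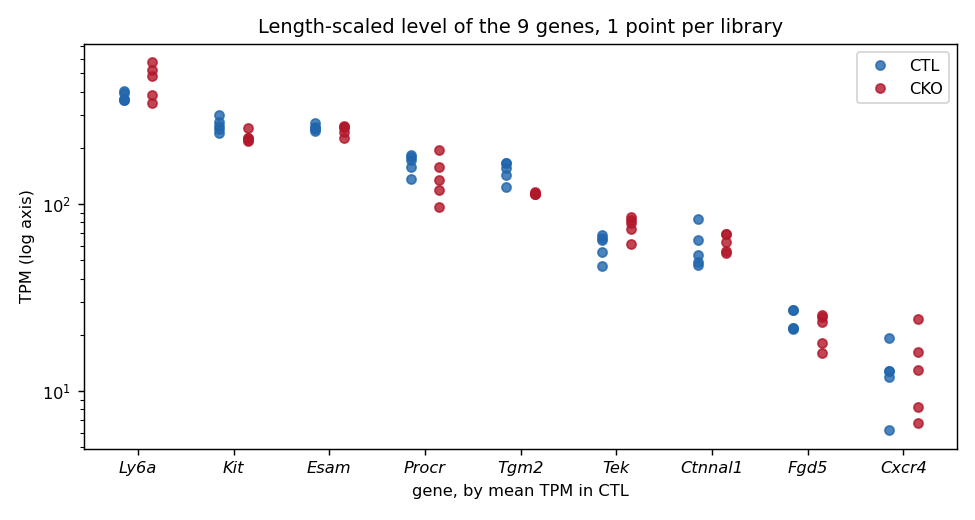
Length-scaled level (TPM, log axis) of the 9 genes in each library, CTL in blue and CKO in red, ordered by the CTL mean. CTL means run from 376 TPM for Ly6a to 12.6 TPM for Cxcr4. Among neighbors in this order, the CTL libraries of Kit and Esam, Procr and Tgm2, and Tek and Ctnnal1 overlap.

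Between the genotypes, none of the 9 genes passed an adjusted p of 0.05 with a fold change above 20% (edgeR's quasi-likelihood F-test, Benjamini-Hochberg over all tested genes), a rule that 0.226% of tested genes passed. At an unadjusted p under 0.05, 2 were higher in CKO HSCs (*Tek* and *Ly6a*) and 2 lower (*Kit* and *Tgm2*), where the background share was 5.80% for higher and 7.08% for lower genes. DESeq2's Wald test called 1 of the 9, *Tgm2*, and 325 of the 14165 tested genes. With limma-voom none of the 9 was called and 28 of all tested genes were. Below, called means called by edgeR, and calls by DESeq2 are given where they differ. The 9 log2 fold changes had a median of -0.04, against 0.01 over all tested genes, with 4 above and 5 below 0, where 51.0% of tested genes lay above. The libraries of the genotypes did not overlap for 1 of the 9, *Tgm2*, as for 3.33% of tested genes. The genes therefore did not move one way as a group.

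**Figure D2:**
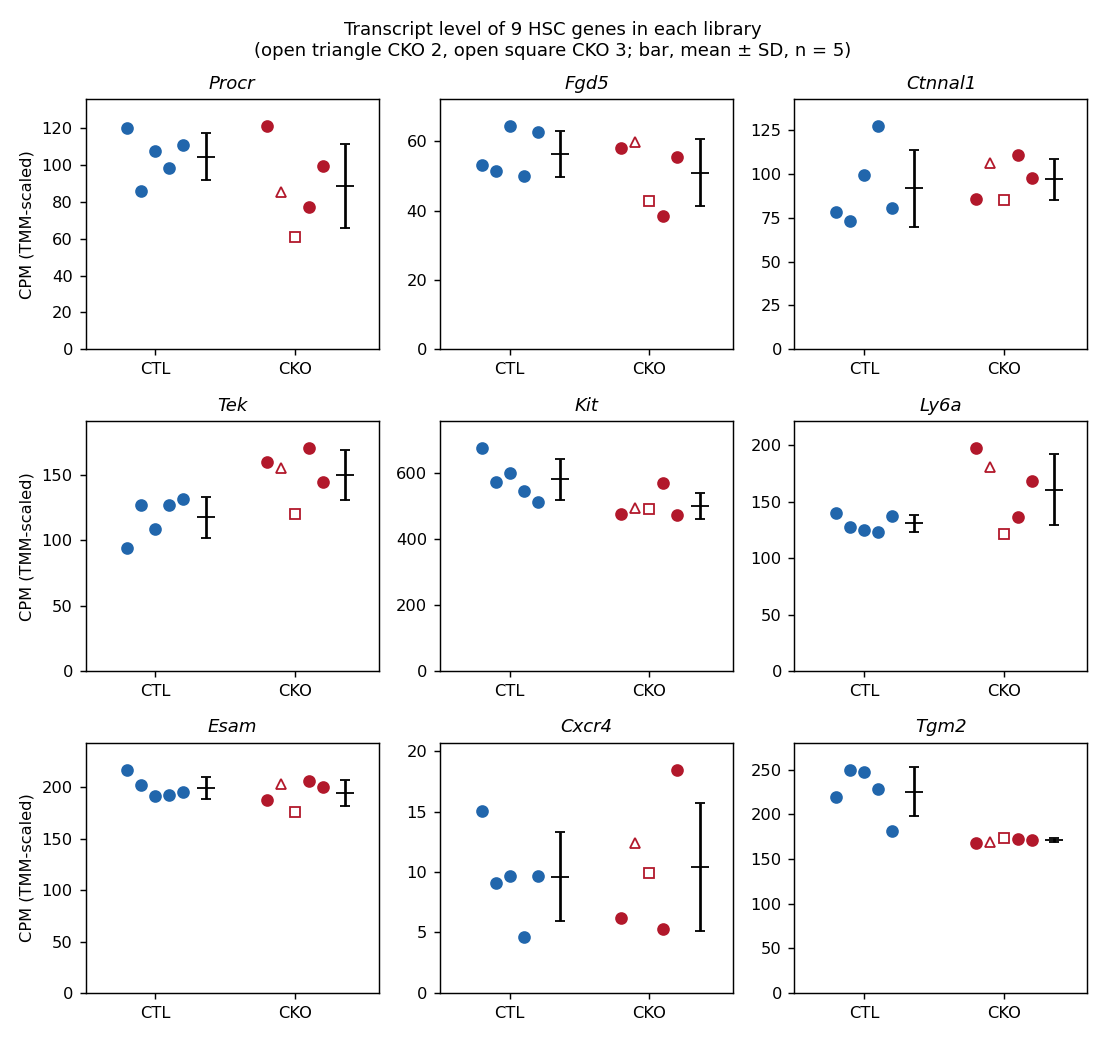
Level of each gene (CPM, axes from 0) in the 5 CTL libraries (blue) and the 5 CKO libraries (red, with CKO 2 as an open triangle and CKO 3 as an open square), with mean ± SD. Only Tgm2 shows no overlap between the groups, and CKO 3 is the lowest of all 10 libraries for Procr, Ly6a and Esam.

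*Tgm2* had a lower mean in CKO HSCs and the smallest p-value of the 9. It lies on chromosome 2 of GRCm38 from 158116402 to 158146436. The CTL libraries had 219, 249.6, 248, 228 and 181 CPM (CTL 1 to 5) and the CKO libraries 168, 169, 174, 173 and 171 CPM (CKO 1 to 5). Every CKO library, CKO 2 and CKO 3 included, lay below every CTL library, as for 1.98% of tested genes. The mean was 75.9% of that in CTL, a log2 fold change of -0.40 (standard error 0.08, 95% interval -0.57 to -0.22, adjusted p = 0.0715, edgeR). Two-sided exact permutation of the genotypes over the libraries gave p = 0.00794, the smallest that 5 against 5 allow. The call depended on the setting. DESeq2's Wald test gave an adjusted p of 0.00283, and leaving out CTL 5, the lowest CTL library, gave -0.47 with an adjusted p of 0.0172 in edgeR. With a loess offset that takes out trends with GC content and length, the log2 fold change was -0.18 (adjusted p = 0.777, edgeR), and the GC content of the longest *Tgm2* transcript, 57.1%, was at percentile 89.5 of tested genes. Without both CKO 2 and CKO 3 it was -0.40 (adjusted p = 0.229, edgeR), and among the male libraries -0.34 (adjusted p = 0.626, edgeR). The spread between CKO libraries, 1.47% of their mean, was smaller than the 3.82% that counting alone gives, while in CTL it was 12.3% against 3.46%.

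The exons of *Tgm2* overlap those of *Rprd1b* and of *Gm20412*, a noncoding transcript, on the opposite strand. Of the 3547 windows of 50 bases in the longest *Tgm2* transcript, 666 (18.8%) also occur in one of them, and the use of strand in counting is not given in the sources used here. *Rprd1b* had 127 ± 13.5 CPM in CTL and 116 ± 11.7 CPM in CKO libraries (SD), and its log2 fold change was -0.14 with an adjusted p of 0.604 in edgeR. Of the 8 other transglutaminase family genes, 5 were tested and none was called. *F13a1* (coagulation factor XIII A), *Epb42* (a red cell membrane protein) and *Tgm5* had the smallest p-values, with log2 fold changes of 0.67, -0.64 and -0.48 at mean levels under 10 CPM.

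*Tek* had a higher mean in CKO HSCs. It lies on chromosome 4 from 94739289 to 94874976. The CTL libraries had 94.3, 127, 108, 127 and 131 CPM and the CKO libraries 159.7, 155, 120.1, 170.2 and 144 CPM, in the order of their numbers. The 4 CKO libraries other than CKO 3 lay above every CTL library, and CKO 3 within the CTL range. The log2 fold change was 0.35 (standard error 0.11, 95% interval 0.11 to 0.59, adjusted p = 0.223, edgeR, exact permutation p = 0.0317), and 0.42 without CKO 3 (adjusted p = 0.123, edgeR). With the GC and length offset it was 0.28 (adjusted p = 0.757, edgeR). Among the 6 male libraries, 3 per genotype, *Tek* had 111 ± 18.5 CPM in CTL and 158 ± 12.9 CPM in CKO (SD, log2 fold change 0.50, adjusted p = 0.480, edgeR). Without both CKO 2 and CKO 3 the log2 fold change was 0.42.

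*Tie1*, the sister receptor of TIE2 that binds no angiopoietin on its own, went the other way. It had 184 CPM on average in CTL and 148 CPM in CKO libraries, with no overlap (log2 fold change -0.31, standard error 0.08, adjusted p = 0.117, edgeR, and 0.0210 in DESeq2, which called it). Without both CKO 2 and CKO 3 it was -0.25 (adjusted p = 0.277, edgeR). *Angpt1*, which encodes the main activating ligand of TIE2, had 716 and 703 CPM (log2 fold change -0.03), so HSCs of both genotypes held transcripts of ligand and receptor. *Angpt2* and *Angpt4*, the other ligands, had means of at most 2.29 CPM and were not tested. Of the 10 genes around TIE2, 7 were tested, none was called, and 2 were lower at an unadjusted p under 0.05 (*Tie1* and *Tnip2*, a TIE2-binding inhibitor of NF-kB, with a log2 fold change of -0.34). *Dok2*, an adaptor recruited by TIE2, had a log2 fold change of 0.29.

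*Kit* had a lower mean in CKO HSCs. It lies on chromosome 5 from 75574916 to 75656722. The CTL libraries had 674, 571, 601, 543 and 511 CPM and the CKO libraries 476, 493, 489.7, 568 and 473 CPM. All CKO libraries except CKO 4 lay below every CTL library. The log2 fold change was -0.21 (standard error 0.08, 95% interval -0.38 to -0.04, adjusted p = 0.290, edgeR, exact permutation p = 0.0397), -0.27 without CKO 4 (adjusted p = 0.148, edgeR) and -0.20 without both CKO 2 and CKO 3. With the GC and length offset it was -0.27 (adjusted p = 0.713, edgeR). *Kitl*, the gene of the KIT ligand, had 7.19 CPM in CTL and 5.83 CPM in CKO libraries. Of 22 genes that encode the ligand, adaptors, kinases and brakes of KIT signaling, all were tested, none was called and 1 was higher at an unadjusted p under 0.05. That gene, *Cblb*, a ubiquitin ligase that turns down receptor signaling, had 52.5 CPM in CTL and 76.8 CPM in CKO libraries (log2 fold change 0.54, adjusted p = 0.263, edgeR). *Sos1*, the RAS exchange factor, and *Sh2b3*, which encodes the inhibitor LNK, had log2 fold changes of 0.29 and -0.29.

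*Ly6a*, the other gene of the sorting gate, had a higher mean in CKO HSCs. It lies on chromosome 15 from 74994877 to 74998031. The CTL libraries had 140.1, 127, 125, 123 and 138 CPM and the CKO libraries 197, 181, 121, 136 and 168 CPM. CKO 1, CKO 2 and CKO 5 lay above every CTL library, CKO 4 within the CTL range and CKO 3 below it. The spread between libraries was 5.90% of the mean in CTL, near the 4.54% of counting alone, and 19.6% in CKO. The log2 fold change was 0.30 (standard error 0.12, 95% interval 0.04 to 0.56, adjusted p = 0.321, edgeR, exact permutation p = 0.119), 0.39 without CKO 3 (adjusted p = 0.135, edgeR) and 0.36 without both CKO 2 and CKO 3. With the GC and length offset it was 0.24 (adjusted p = 0.757, edgeR). Of the 906 windows of 50 bases in its longest transcript, 91 (10.04%) also occur in other genes, among them *Ly6c1*, *Ly6i* and *Ly6c2*, which had at most 7.503 CPM on average in either genotype. Of 17 other LY6 family genes, 2 were tested and none was called, *Ly6e*, the most abundant, having 302 CPM in CTL and 295 CPM in CKO libraries and *Lypd6b* 8.20 and 7.99 CPM.

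*Procr* varied more between the CKO libraries than any of the 9 but *Cxcr4*. It lies on chromosome 2 from 155751117 to 155755471. The CTL libraries had 120.1, 86.1, 108, 98.7 and 111 CPM and the CKO libraries 121, 85.3, 60.98, 77.3 and 99.8 CPM. The highest and the lowest of all 10 libraries, CKO 1 and CKO 3, were both CKO libraries, and the spread was 25.7% of the mean in CKO against 12.3% in CTL. The log2 fold change was -0.23 (standard error 0.16, 95% interval -0.57 to 0.10, adjusted p = 0.576, edgeR), so the data allow anything from a fall by 0.57 to a rise by 0.10. It was -0.12 without CKO 3, -0.37 without CKO 1 and -0.07 without both CKO 2 and CKO 3.

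Of 14 genes around EPCR, which cover protein C, thrombin receptors and their cofactors, 11 were tested, none was called and 3 were higher at an unadjusted p under 0.05. *F2r*, the gene of the thrombin receptor PAR1 that signals with EPCR, had 227 CPM in CTL and 313 CPM in CKO libraries on average, with every CKO library above every CTL library (log2 fold change 0.46, standard error 0.11, adjusted p = 0.0904, edgeR, and 0.00227 in DESeq2, which called it). Without both CKO 2 and CKO 3 it was 0.496 (adjusted p = 0.166, edgeR). No overlap of this kind was found in 1.35% of tested genes for the higher direction. *F2rl2*, which encodes PAR3, and *Tfpi*, an inhibitor of tissue factor, had log2 fold changes of 0.54 and 0.23. *Thbd*, the gene of thrombomodulin, had 29.2 CPM in CTL and 27.1 CPM in CKO libraries, and *Proc*, the gene of protein C itself, at most 0.482 CPM on average.

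*Esam* was the steadiest of the 9 in CTL HSCs. It lies on chromosome 9 from 37528078 to 37538319 and had 217, 203, 191, 193 and 196 CPM in the CTL libraries and 188, 203, 176, 206 and 200.5 CPM in the CKO libraries. The genotypes overlapped, and the log2 fold change of -0.04 had a 95% interval from -0.18 to 0.11 (adjusted p = 0.857, edgeR), so a fall or a rise of 20% or more lay outside it. Without both CKO 2 and CKO 3 it was -0.01. Of 12 genes of related or binding junction proteins, 9 were tested and none was called. *Jam2* and *Jam3*, which encode junctional adhesion molecules, were lower at an unadjusted p under 0.05 (log2 fold changes -0.66 and -0.35), and *Tjp1*, which encodes the junction scaffold ZO-1, was higher (22.9 CPM in CTL and 48.8 CPM in CKO libraries, log2 fold change 1.10, adjusted p = 0.0948, edgeR). *Tjp1* was called by DESeq2 (adjusted p = 0.00659) and, without both CKO 2 and CKO 3, by edgeR (1.34, adjusted p = 0.0305).

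For *Fgd5*, *Ctnnal1* and *Cxcr4* the libraries of the genotypes overlapped. *Fgd5* (chromosome 6, 91978878 to 92076004) had 53.2, 51.5, 64.4, 49.97 and 62.8 CPM in CTL and 58.00, 59.9, 42.8, 38.5 and 55.5 CPM in CKO libraries, a log2 fold change of -0.14 (95% interval -0.46 to 0.17, adjusted p = 0.728, edgeR) that was -0.01 with the GC and length offset. *Ctnnal1* (chromosome 4, 56810935 to 56865188) had 78.3, 73.3, 99.4, 127 and 80.7 CPM in CTL and 85.8, 106, 84.9, 111 and 97.5 CPM in CKO libraries, a log2 fold change of 0.08 (95% interval -0.24 to 0.39, adjusted p = 0.865, edgeR). Its CTL spread came mostly from CTL 4, the highest of all 10 libraries, and without it the log2 fold change was 0.22. *Cxcr4* (chromosome 1, 128588199 to 128592293) had 15.05, 9.09, 9.70, 4.63 and 9.63 CPM in CTL and 6.18, 12.4, 9.93, 5.29 and 18.4 CPM in CKO libraries, which are 18 to 80 counts. The 95% interval of its log2 fold change, -0.73 to 0.99, was the widest of the 9, so that a ratio of CKO to CTL anywhere from 0.601 to 1.99 lay within it. Without both CKO 2 and CKO 3 the log2 fold changes of *Fgd5*, *Ctnnal1* and *Cxcr4* were -0.15, 0.09 and 0.06.

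Of 13 FGD family genes, CDC42 and effectors, all were tested, none was called and 1 was higher at an unadjusted p under 0.05, *Cdc42ep3*, a CDC42 effector (log2 fold change 0.26). *Pak1*, a CDC42-activated kinase, and *Fgd2* had log2 fold changes of 0.17 and -0.27. Of 8 catenin and vinculin genes, all were tested and none was called, and *Jup* (plakoglobin) was lower at an unadjusted p under 0.05 (log2 fold change -0.62), with *Vcl* (vinculin) and *Arhgef1* at 0.19 and -0.16. Of 17 genes around CXCR4, 16 were tested, none was called and 1 was higher at an unadjusted p under 0.05, *Dpp4*, whose product cleaves CXCL12 (136 CPM in CTL and 163 CPM in CKO libraries, log2 fold change 0.26). *Gnai3* and *Vav1*, which carry signals from the receptor, had log2 fold changes of 0.15 and -0.10, and *Cxcl12* itself had at most 5.61 CPM on average.

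**Figure D3:**
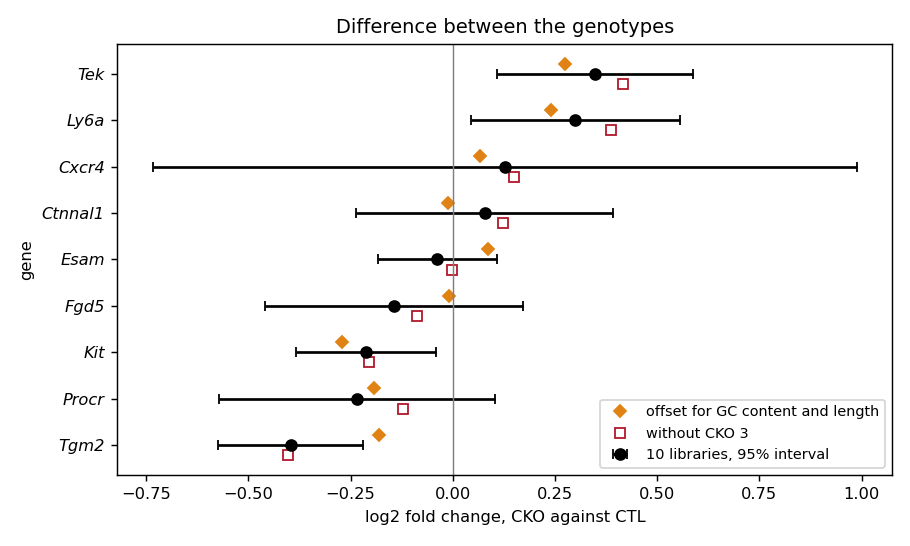
Log2 fold change of each gene, CKO against CTL, with the 95% interval over 10 libraries (black), with the GC and length offset (orange) and without the library labelled CKO 3 (open red). Tgm2 moves from -0.40 to -0.18 with the offset, and Tek and Ly6a move from 0.35 to 0.42 and from 0.30 to 0.39 without CKO 3.

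A list of 31 other genes that mark or maintain mouse HSCs was set beside the 9. It was chosen with earlier results of these data known, so its counts and median are a description and carry no test. All 31 were tested, edgeR and limma-voom called none and DESeq2 called 4 (*Prdm16*, *Vldlr*, *Cdkn1c* and *Pdzk1ip1*), where DESeq2 called 325 of the 14165 tested genes. In edgeR 9 were lower and 2 higher at an unadjusted p under 0.05, where the shares over all tested genes were 7.08% and 5.80%. The median log2 fold change was -0.14, against 0.01 over all tested genes. In all, 23 of the 31 lay below 0 and 8 above, where 51.0% of tested genes lay above. *Prdm16*, a transcription factor that HSCs need, had a log2 fold change of -0.54 with no overlap between the genotypes (adjusted p = 0.0709, edgeR, and 0.00227 in DESeq2), and *Pdzk1ip1* had -0.35 (adjusted p = 0.145, edgeR). Without both CKO 2 and CKO 3, *Prdm16* had -0.44 (adjusted p = 0.229, edgeR). For *Vldlr*, the VLDL receptor, it was 0.79 (adjusted p = 0.0781, edgeR). Among surface genes of this list, *Slamf1*, which encodes the CD150 of the sorting gate, had 106 CPM in CTL and 120 CPM in CKO libraries, and *Itga6*, an integrin chain, 82.7 and 112 CPM (log2 fold change 0.44). *Adgrg1*, *Clec1a* and *Robo4*, all surface receptors, had log2 fold changes of -0.23, -0.59 and -0.40.

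**Figure D4:**
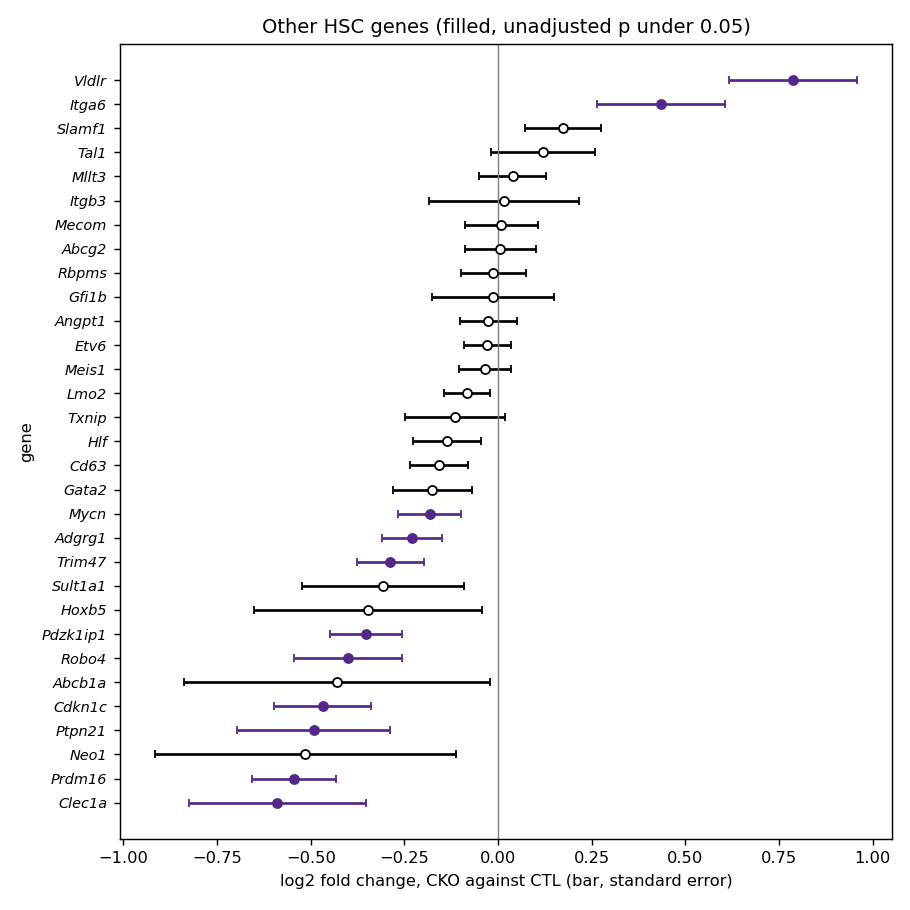
Log2 fold change (CKO against CTL) of 31 other HSC genes with standard errors, filled where the unadjusted p was under 0.05. Of the filled points 9 lie below 0 and 2 above it, and none had an adjusted p under 0.05 in edgeR. The list was chosen with earlier results of these data known.

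Because *Tek*, *Esam*, *Procr* and *Fgd5* are also expressed by endothelial cells and *Kit* by mast cells, markers of other cell types were read in the same libraries. The levels of 16 endothelial markers summed to 476 to 518 CPM in CTL and 455 to 549 CPM in CKO libraries, most of it from *Tie1*, *Pecam1*, *Egfl7* and *Emcn*, which HSCs also express. *Cdh5*, *Plvap*, *Lyve1* and *Fabp4* had at most 3.70 CPM on average in either genotype. Others of the list were higher, with means of up to 12.3 CPM for *Sox18*, 6.80 CPM for *Stab2*, 6.49 CPM for *Flt1* and 4.09 CPM for *Stab1*. *Kdr* and *Cldn5* differed at an unadjusted p under 0.05, with log2 fold changes of 1.119 and -1.64 at no more than 18.4 CPM. The 10 mast cell and basophil markers summed to 80.2 to 137 CPM in CTL and 144 to 245 CPM in CKO libraries, which did not overlap, and the CKO libraries other than CKO 2 and CKO 3 had 181 to 245 CPM. Most of the sum came from *Gata1* (means of 60.7 CPM in CTL and 72.3 CPM in CKO), *Cpa3* (36.6 and 72.0 CPM) and *Fcer1a* (4.72 and 31.3 CPM). How often the sum of such a list does not overlap was not counted. *Cpa3* (log2 fold change 0.98), *Fcer1a* (2.77) and *Gata1* (0.26) had the smallest p-values there, *Cpa3* and *Fcer1a* being called by DESeq2 but not by edgeR, and the mast cell proteases *Mcpt4*, *Tpsb2* and *Tpsab1* were at or under 0.702 CPM on average. Of the 5 tested markers, 4 had log2 fold changes above 0 and 1 below, *Hdc* at -0.97 with a CTL mean of 4.00 CPM. The mean of *Kit* was lower in the same CKO libraries, and the part of such cells in its value was not tested.

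The 11 markers of multipotent progenitors summed to 833 to 986 CPM in CTL and to 944 to 1020.1 CPM in CKO libraries other than CKO 3, which had 825 CPM. Of them, *Cd48* was called higher (log2 fold change 1.18, adjusted p = 0.0264, edgeR, and 1.32 without both CKO 2 and CKO 3, adjusted p = 0.0395), in cells sorted as negative for the CD48 protein. *Wfdc17* had 1.49, *Plac8* 0.33 (both called by DESeq2) and *Flt3* -0.36, and *Cd34* had 390 CPM in CTL and 380 CPM in CKO libraries. Megakaryocyte markers summed to 619 to 784 CPM in CTL and 726 to 921 CPM in CKO libraries, with *Selp* called (log2 fold change 1.61, and 1.72 without both CKO 2 and CKO 3, still called) and *Treml1* and *Pf4* at -0.32 and 0.12. Myeloid markers ranged from 208 to 820 CPM in CTL and from 194 to 524 CPM in CKO libraries (*Ms4a3* 1.17, *Prtn3* -0.25, *Elane* -1.47). Erythroid (*Car1* -0.87, *Hbb-bs* -0.53, *Car2* -0.05), lymphoid (*Nkg7* 0.47, *Ighm* -0.44, *Klrb1c* -0.33) and stromal (*Pdgfra* 0.84, *Lepr* 0.66, *Vcam1* 0.41) markers had overlapping sums and no called gene. The sorting gate removes lineage-positive and CD48+ cells. In bulk HSC libraries, fewer cells of a type and less RNA per cell cannot be told apart, and the part of these cells in the levels of the 9 genes was not tested.

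The genes whose log2 CPM followed each of the 9 most closely over the 10 libraries were read off as a description, among 10920 genes with a mean of at least 10 CPM. *Kit* was nearest to *Pkm*, the glycolytic pyruvate kinase (Pearson's r 0.97, Spearman's rho 0.96), and *Tek* to *Ppp1r12a*, a subunit of myosin phosphatase (0.96, 0.88). *Ly6a* was nearest to *Gm1966* (0.96, 0.84), *Fgd5* to *Pam* (0.96, 0.94), *Tgm2* to *Rassf5* (0.95, 0.79) and *Esam* to *Nfam1* (0.94, 0.78). *Procr*, *Cxcr4* and *Ctnnal1* were nearest to *Ccdc125* (0.92, 0.85), *Gm19876* (0.92, 0.90) and *Slfn10-ps* (0.91, 0.95). Each is the highest of many correlations over 10 libraries that share genotype and depth, so high values arise without a relation between the genes.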

How the data were processed

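RNA-seq of 10 libraries of sorted HSCs, 5 per genotype, was examined. Per the study's methods, the authors aligned single-ended reads with HISAT2 to GRCm38, used Rsubread for counting, and deposited raw counts per gene symbol with a gene length in bases. The annotation, strand setting and treatment of multi-mapping and duplicate reads are not given in the sources used here. Genotypes were taken from the labels.

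Counts were filtered (filterByExpr), TMM-normalized and compared with the quasi-likelihood test (robust) in edgeR 4.0.16 under R 4.3.3, with Benjamini-Hochberg adjustment over all 14165 tested genes. A call needed an adjusted p under 0.05 and a fold change above 20%. Log2 CPM used a prior count of 2. Two-sided exact permutation tests compared mean CPM for each of the 9 genes and *Cited2*. Alternatives were DESeq2 1.42.0 (Wald), its size factors, library totals, other filters, limma-voom (version 3.58.1), a block for the replicate number, *Xist* as a covariate, a loess offset for GC content and length (GC known for 98.1% of tested genes), and each library left out. The block together with the offset, CKO 2 and CKO 3 left out together, and the male libraries alone were added after the data were seen. The 9 genes and all lists were chosen with earlier results of these data known. Named are the 9, *Cited2*, list genes with an adjusted p under 0.05, the 3 of each list with the smallest p, and the nearest-pattern genes. Others were named after their values were seen. Positions and overlaps came from GENCODE M21 (GRCm38), upstream sequences from RefSeq (GRCm38.p6). *Hbb-bt* and 2 further genes of the lists are not reported here. The scripts were tested on simulated data. Chi-square values per gene of at least 4.50 separated any pair of libraries of 1 genotype, so all were counted as separate samples. These values cannot tell libraries of separate mice from separate preparations of 1 mouse.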

Additional observations from a re-analysis of the deposited data

Results flagged for a closer look

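The value of *Kit* in CKO 4, 568 CPM, lay far from the other CKO libraries, of which the next was 493 CPM (gap of 0.795 of the group's range). The value of *Cited2* in the library labelled CKO 3, 120 CPM, lay far from the other CKO libraries, of which the next was 8.30 CPM (gap of 0.961 of the range). In all, 20 sets of 5 libraries were examined, and chance alone marks about 1 in 20.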

How the results depend on the processing

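For the 9 genes, 189 of 198 log2 fold changes over 22 alternatives kept their direction and their side of the threshold. Without a filter on low counts, with library totals, DESeq2's size factors, limma-voom, the *Xist* covariate or the replicate block, none of the 9 was called. With DESeq2's Wald test 325 genes were called in place of 32, 1 of the 9 among them, *Tgm2* at -0.39. With the GC and length offset 8 genes were called, *Ctnnal1* turned to -0.0117 and *Esam* to 0.0864. With that offset and the replicate block together these were 12, -0.00909 and 0.0858. Within the male libraries 5 genes were called, and *Cxcr4* turned to -0.19 there. *Cited2* passed the threshold with limma-voom (-3.99), in the male libraries (-4.61) and without both CKO 2 and CKO 3 (-4.82). The causes were not tested.

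Leaving out 1 library at a time called 8 to 42 genes and 0 to 1 of the 9. Without any 1 of CTL 1 to CTL 4, CKO 1, CKO 2 or CKO 5 it was 8 to 16 genes. The log2 fold changes ranged from -0.37 to -0.12 for *Procr*, -0.21 to -0.06 for *Fgd5*, 0.00 to 0.22 for *Ctnnal1*, 0.27 to 0.42 for *Tek*, -0.27 to -0.16 for *Kit*, 0.21 to 0.39 for *Ly6a*, -0.06 to -0.00 for *Esam*, -0.19 to 0.34 for *Cxcr4* (below 0 without CTL 4, -0.05, or CKO 5, -0.19), -0.47 to -0.36 for *Tgm2* and -4.92 to -2.23 for *Cited2*. No pairing by replicate number is given in the sources used here. Of 5 same-numbered pairs, 2 had a correlation of deviations above 0.1 (0.21 for number 3 and 0.19 for number 5). Such correlations cannot show that pairing was absent. With the replicate block 24 genes were called and none of the 9. Counting error was largest for *Cxcr4* among the 9, where counting alone gives a spread of 17.6% in CTL and 17.3% in CKO libraries. The spread between libraries was larger, 38.4% of the mean in CTL and 50.8% in CKO, and its cause was not tested.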

Other observations

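The transcripts of the TIE receptors stood in a different proportion in the libraries of each genotype, with no offset for GC content and length applied. The ratio of *Tek* to *Tie1*, each in TPM of the same library, was 0.533 ± 0.0851 in CTL libraries (SD, n = 5, range 0.421 to 0.616) and 0.844 ± 0.0657 in CKO libraries (range 0.770 to 0.95), with no overlap. The lowest and the highest CKO values came from CKO 5 and CKO 4, so the range was the same without CKO 2 and CKO 3. The ratio of the gate genes *Ly6a* to *Kit* was 1.42 ± 0.158 in CTL (range 1.30 to 1.69) and 2.03 ± 0.485 in CKO libraries (range 1.499 to 2.59), which overlapped. The ratio of *F2r* to *Procr* was 1.003 ± 0.162 in CTL (range 0.806 to 1.21) and 1.69 ± 0.460 in CKO libraries (range 1.18 to 2.23), which overlapped. These pairs were chosen after the values were seen, so the ratios carry no test.

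Over the 9 genes, CKO 3 was the lowest of 10 libraries for 3, and no other library was lowest for more than 1. The share of all tested genes for which CKO 3 was lowest was not counted. CKO 3 differed from the other CKO libraries both in its *Cited2* level and in being the only 1 read as female.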
